A study of Mus musculus with 20 samples.

Results

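The genes described here are 10 genes of bile acid transport and FXR signalling, measured by RNA sequencing in mouse liver. They were matched by symbol in the table of raw read counts, where each of the 10 had 1 row of the 55487 genes listed, 21936 of them protein coding. The libraries came from 20 female C57BL/6J mice, 1 library per mouse, all 28 weeks old at sampling. Feeding with chow or with a high-fat diet (HFD) began at 8 weeks of age. For the last 10 weeks the chow-fed mice stayed on chow, and the HFD-fed mice received HFD in which 50% of the protein came from fishmeal made of salmon by-products, from salmon filet or from beef. No chow-fed group received fishmeal, salmon filet or beef, so the protein sources can be compared only on top of HFD. The paper reports that these HFDs also differed in cholesterol, highest with fishmeal, and in added soybean oil and fatty acids. A comparison of protein sources below is therefore one of whole diets. The study asked how mice tolerate and metabolise these protein sources, with the liver as one of several readouts and the chow-fed mice as its reference.

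Hepatocytes take bile acids up from portal blood across their sinusoidal membrane and secrete them across the canalicular membrane into bile. The bile acid receptor FXR senses bile acids inside the cell and activates genes of export and of feedback, while a second signal reaches the liver from the intestine as FGF15, which binds FGFR4 together with beta-klotho on hepatocytes and lowers bile acid synthesis. Efflux carriers of the sinusoidal membrane return bile acids and their conjugates to the blood. The 10 genes divide by these roles. Nr1h4 encodes FXR, Nr0b2 encodes SHP, a repressor that FXR induces, and Fgfr4 and Klb encode the FGF15 receptor and its co-receptor beta-klotho. Abcb11 (bile salt export pump), Abcb4 (the phosphatidylcholine floppase MDR2) and Abcc2 (MRP2, exporter of conjugates) work at the canalicular membrane, Abcc3 (MRP3) and Abcc4 (MRP4) at the sinusoidal membrane, and Slc10a1 encodes NTCP, the sodium-dependent uptake carrier.

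FXR with its partner RXR is known to bind an inverted repeat of 2 hexamers with 1 base between them, written here as AGGTCANTGACCT, in which N is any base. This motif reads the same on both strands, and each window of 13 bases was scored by how many of its 12 fixed bases matched. RefSeq promoter windows on GRCm38.p6, from 250 bases before to 50 bases after a start site, were held for 9 of the 10 genes. The Abcb11 window, chr2:69342567-69342866 on the minus strand, is shown whole because it held the closest match, in capitals.
Abcb11: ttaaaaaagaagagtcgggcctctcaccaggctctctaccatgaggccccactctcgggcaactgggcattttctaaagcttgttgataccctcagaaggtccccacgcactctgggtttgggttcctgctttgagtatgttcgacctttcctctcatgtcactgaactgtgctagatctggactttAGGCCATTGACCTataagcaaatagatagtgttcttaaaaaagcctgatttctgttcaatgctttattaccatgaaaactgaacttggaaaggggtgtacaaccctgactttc
This match had 11 of 12 fixed bases and began 63 bases before the start site (position -63), and only 0.0822% of the 32851 promoter windows held a match as close or closer. The closest windows of the other genes follow, each 5′ to 3′ with the bases that match the motif in capitals, so that they can be compared with that of Abcb11.
Abcb11 window: AGGcCAtTGACCT
Slc10a1 window: AGGgCAcTtAgCT
Nr0b2 window: ActTCAtTGACta
Klb window: AGGTtgtTGACgg
Nr1h4 window: tGGcattTGACCT
Abcb4 window: tGGTtgtTGAaCT
Fgfr4 window: gGGTCtcgGACCa
Abcc4 window: tGGTCtcTGtCgT
Abcc2 window: AGGTCAggagaCT
Slc10a1 matched at 9 of 12 bases, as 11.4% of all promoter windows did or exceeded, and the other 7 genes at 8 of 12, as did 56.4%. The match says only which letters lie in these 300 bases. The E-box CACGTG, a motif of clock transcription factors, was found once each in the windows of Nr0b2 and Abcc4, and in 7.15% of all windows on either strand. The antioxidant response element core TGACNNNGC was found once each in the windows of Klb, Abcc4 and Abcc2, and in 12.4% of all windows. The D-box TTANGTAA, found in 2.32% of all windows, was in none of these genes' windows. The single hexamer AGGTCA was found once in the windows of Abcb11, Nr1h4 and Abcc2, and in 16.3% of all windows, and at Abcb11 it is the second hexamer of the repeat read on the other strand. The Nr1h4 window lies at a start site inside the gene, 26927 bases from the outermost start of the annotation. Slc10a1 and Abcc4 each have a further window at another start site, with 9 and 7 matching bases. That of Slc10a1 also holds the hexamer, and that of Abcc4 the antioxidant response element core.

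One library carries conflicting names. Mouse 31 is labelled as fed salmon filet, whereas its column in the count table names beef. It was counted with beef by its column name, which gives 5 mice per group, and values as labelled, with 6 salmon and 4 beef libraries, follow those by column name for the members named in the comparisons that depend on it. The values of other pathway genes in single diet groups are by column name alone. The comparisons of all HFD-fed with chow-fed mice and of fishmeal with chow or with the other HFD groups do not depend on it. Total counts per library lay between 42526234 and 70266136, and mouse 35 stood apart with 84.3% of its counts on protein coding genes against 93.2% to 95.6% in the others. All 8 hepatocyte markers were detected in every group, with a summed level of 105200 to 126800 CPM (counts scaled to library size) in chow-fed and 96410 to 122800 CPM in HFD-fed mice. Most of this sum was Alb, at 81700 to 104100 CPM in chow-fed and 70500 to 95950 CPM in HFD-fed mice. In bulk tissue, fewer cells of a type and less RNA per cell cannot be told apart. Each mouse is a separate animal, and the p-values of group comparisons below weigh a difference against the spread between mice. Cage was not part of any fit.

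Compared per length, in TPM (values corrected for transcript length and sequencing depth), the genes spanned a wide range of levels. The order by median over the 20 libraries was Slc10a1 (614 TPM), Abcb11 (478 TPM), Abcc2 (258 TPM), Nr1h4 (156 TPM), Abcc3 (153 TPM), Abcb4 (64.6 TPM), Nr0b2 (30.4 TPM), Klb (27.4 TPM), Fgfr4 (24.0 TPM) and Abcc4 (1.77 TPM). The uptake carrier and the bile salt export pump thus had the highest levels, and the sinusoidal carrier Abcc4 the lowest. Not every neighbour in this order was separated. Slc10a1 exceeded Abcb11 in 17 of 20 libraries, Nr1h4 exceeded Abcc3 in 10, Nr0b2 exceeded Klb in 12 and Klb exceeded Fgfr4 in 15. The remaining neighbours kept their order in all 20 libraries. Nr0b2 varied most among mice, from 5.77 to 61.6 TPM, and Slc10a1 least in relative terms, from 528 to 709.8 TPM.

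**Figure D1:**
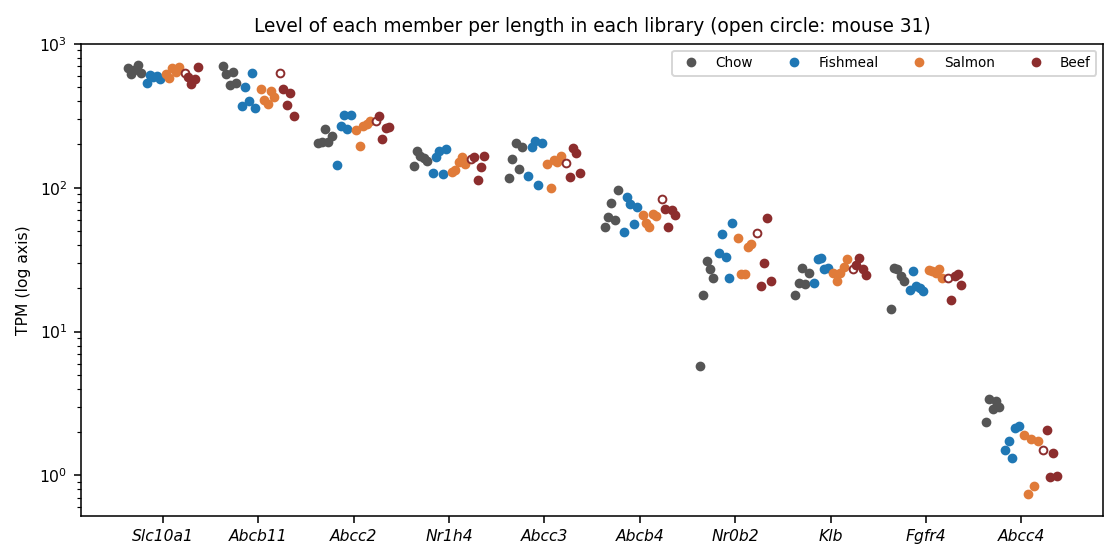
TPM (log axis) of each gene in each of the 20 libraries, ordered by median, with 1 point per mouse coloured by diet group and mouse 31 as an open circle at its column name's group. Slc10a1 and Abcb11 lie highest at medians of 614 and 478 TPM, and Abcc4 lies lowest at 1.77 TPM.

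In the comparison of all 15 HFD-fed with the 5 chow-fed mice, Abcc4 fell by 0.92 on the log2 scale and Klb rose by 0.33 (edgeR, adjusted p = 0.00255 and 0.0415). These were 2 of the 10 genes, 1 in each direction, at an adjusted p under 0.05. Over all protein coding genes tested, 10.3% were called, 4.74% as higher and 5.59% as lower in HFD. Abcb11 and Nr0b2 missed the threshold narrowly, with log2 fold changes of -0.39 and 0.86 and adjusted p-values of 0.0502 and 0.0553. The median log2 fold change of the 10 genes was -0.04, and that of all protein coding genes was 0.01. The levels that follow are CPM after TMM normalisation and compare mice for 1 gene at a time.

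**Figure D2:**
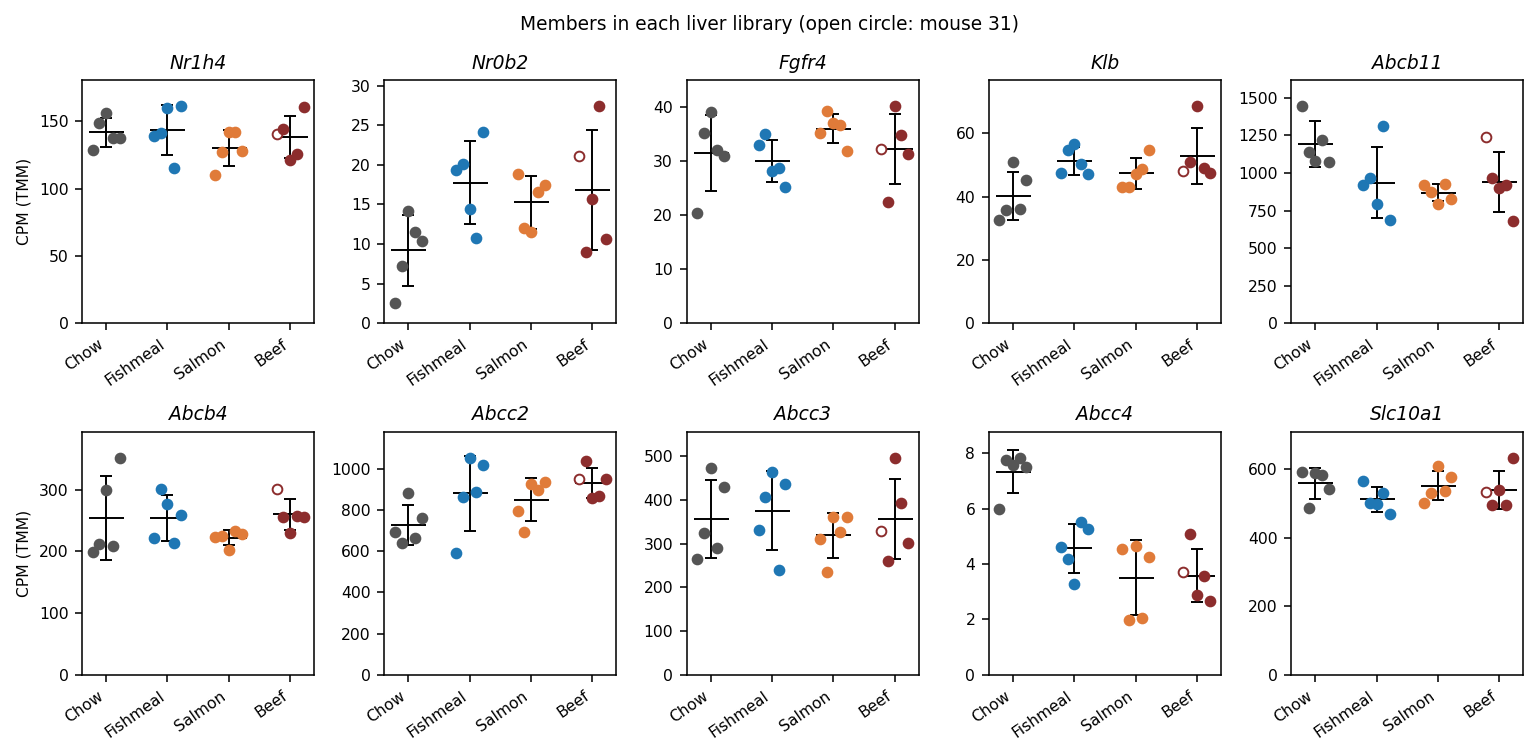
CPM of the 10 genes in each library by diet group, with 1 point per mouse, black bars for the mean and SD of each group of 5 and mouse 31 drawn open at beef. In the panel of Abcc4 all 15 HFD-fed mice, at 1.99 to 5.50 CPM, lie below the 5 chow-fed mice, at 5.97 to 7.84 CPM.

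The receptor gene Nr1h4 (chr10:89454234-89533585, minus strand, GRCm38) had levels of 128, 149, 156, 138 and 138 CPM in the chow-fed mice. With HFD its lowest, median and highest levels were 110.0, 141 and 161 CPM. The ranges overlapped, 6 of the 15 HFD-fed mice were below the lowest chow-fed mouse and 3 above the highest. The log2 fold change was -0.05 ± 0.09 (SE), with a 95% interval of -0.23 to 0.13 and an adjusted p of 0.786.

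Nr0b2 (chr4:133553376-133556536, plus strand), the SHP gene, was at 2.59, 7.27, 14.2, 11.6 and 10.4 CPM in chow. It was at 19.3, 20.1, 14.4, 10.8 and 24.1 CPM with fishmeal, 18.9, 12.0, 11.5, 16.6 and 17.5 CPM with salmon filet, and 9.05, 15.7, 27.4 and 10.6 CPM with beef, with 21.1 CPM in mouse 31. Of the 15 HFD-fed mice, 14 were above the chow mean of 9.20 CPM and 10 above the highest chow-fed mouse, and the lowest level of all was that of chow mouse 1. The log2 fold change of 0.86 ± 0.28 (SE) had a 95% interval of 0.27 to 1.44, an unadjusted p of 0.00584 and an adjusted p of 0.0553. The call depended on single mice and on the tool. The adjusted p was 0.0172 in DESeq2, and 0.0444, 0.0386 and 0.0310 without mouse 16, 32 or 5. Without mouse 1 the log2 fold change was 0.62. Nr0b2 was not called in 25 of the 29 alternative fits. Its adjusted p reached 0.151 without single mice, and was 0.261 with the clock score described below as a covariate.

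For the FGF15 receptor, the 2 genes gave different results. Fgfr4 (chr13:55152640-55168759, plus strand) was at 20.3, 35.3, 39.2, 32.0 and 31.0 CPM in chow and at 22.5, 33.1 and 40.2 CPM (lowest, median and highest) with HFD. These ranges overlapped almost fully, and the log2 fold change was 0.05 ± 0.12 (SE), with a 95% interval of -0.20 to 0.31 and an adjusted p of 0.845. Klb (chr5:65348314-65384007, plus strand), the co-receptor, was at 32.6, 35.9, 51.1, 36.1 and 45.2 CPM in chow. It was at 47.4, 54.8, 56.8, 50.5 and 47.1 CPM with fishmeal, 43.1, 42.99, 47.1, 48.9 and 54.8 CPM with salmon filet, and 51.0, 68.6, 48.9 and 47.6 CPM with beef, with 48.2 CPM in mouse 31. All 15 HFD-fed mice were above the chow mean of 40.2 CPM, although 11 of them were not above the highest chow-fed mouse. Klb rose by a log2 fold change of 0.33 ± 0.10 (SE), with a 95% interval of 0.12 to 0.54. This call was lost without mouse 13, 14, 27 or 39 (adjusted p = 0.0537, 0.0575, 0.0560 and 0.0504), without chow mouse 1, 2 or 7 (adjusted p = 0.160, 0.126 and 0.132), without a filter on low counts (0.0661), in limma on log2(TPM + 1) (0.0886) and with the clock score described below as a covariate (0.458). The ligand gene Fgf15, made in the ileum, had 0 counts in all 20 liver libraries.

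Of the canalicular exporters, Abcb11 (chr2:69238282-69342616, minus strand), whose promoter is printed above and whose overlapping antisense gene Gm13613 had at most 2 counts in a library, was at 1444, 1142, 1080.5, 1221 and 1075 CPM in chow. It was at 922, 969, 791, 1311 and 688 CPM with fishmeal, 922, 874, 793, 928 and 829.4 CPM with salmon filet, and 967, 899.7, 917 and 678 CPM with beef, with 1237 CPM in mouse 31. Thus 13 of the 15 HFD-fed mice were below every chow-fed mouse, and fishmeal mouse 16 and mouse 31 were within the chow range. The log2 fold change was -0.39 ± 0.12 (SE), with a 95% interval of -0.64 to -0.13 and an adjusted p of 0.0502. The adjusted p was 0.0318 in DESeq2, 0.0420 after removal of genes under 10 counts in any library and 0.0402 in limma on log2(TPM + 1), and 0.0149, 0.0254, 0.0492 and 0.0494 without mouse 16, 31, 32 or 10. Abcb11 was not called in 21 of the 29 alternative fits. Without single mice its adjusted p reached 0.211, and its log2 fold change lay between -0.43 and -0.30. With the clock score described below as a covariate, the log2 fold change was -0.05 (adjusted p = 0.933).

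Abcb4 (chr5:8893717-8959231, plus strand) was at 198, 212, 299.8, 209 and 352 CPM in chow and at 203, 233 and 301 CPM (lowest, median and highest) with HFD. All HFD-fed mice were within the chow range, with a log2 fold change of -0.05 ± 0.12 (SE) and an adjusted p of 0.835. Reads of Abcb4 could be shared with Abcb1b, which is 91.0% identical over 387 bases of transcript but had at most 88 counts in a library. Abcc2 (chr19:43782192-43840740, plus strand) was at 691, 642, 884, 663 and 762 CPM in chow. It was at 591, 863, 1054, 888 and 1017 CPM with fishmeal, 794, 694, 926, 897 and 938 CPM with salmon filet, and 1037, 857, 866 and 953 CPM with beef, with 952 CPM in mouse 31. The groups overlapped, with 13 of 15 HFD-fed mice above the chow mean of 728 CPM and fishmeal mouse 12 below every chow-fed mouse. The log2 fold change of 0.28 ± 0.11 (SE) did not pass, with an unadjusted p of 0.0173 and an adjusted p of 0.109. It passed without mouse 12, at a log2 fold change of 0.32 and an adjusted p of 0.0318.

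The sinusoidal efflux carriers differed from each other. Abcc3 (chr11:94343295-94392997, minus strand) was at 266, 325, 472, 289 and 429 CPM in chow and at 236, 330.0 and 497 CPM (lowest, median and highest) with HFD. Its log2 fold change was -0.03 ± 0.16 (SE), with a 95% interval of -0.35 to 0.30 and an adjusted p of 0.948. Abcc4 (chr14:118482692-118706219, minus strand) was at 5.97, 7.76, 7.57, 7.84 and 7.51 CPM in chow. It was at 4.599, 4.18, 3.26, 5.50 and 5.25 CPM with fishmeal, 4.55, 1.99, 4.65, 2.05 and 4.23 CPM with salmon filet, and 5.09, 2.87, 3.58 and 2.67 CPM with beef, with 3.69 CPM in mouse 31. Every HFD-fed mouse was thus below every chow-fed mouse. Abcc4 was the 1 gene of the 10 whose HFD and chow levels did not overlap, against 1.69% of all protein coding genes tested. These levels rested on 370 to 477 counts in chow and 112 to 316 counts with HFD. Abcc4 fell to 0.529 of its chow level, a log2 fold change of -0.92 ± 0.18 (SE) with a 95% interval of -1.30 to -0.54 and an adjusted p of 0.00255. The call remained when any 1 mouse was left out, with adjusted p-values up to 0.0107. It was lost with the clock score as a covariate (log2 fold change -0.80, adjusted p = 0.127), where 250 protein coding genes were called in place of 1415. Of the lymphocyte markers, which are not hepatocyte genes, 5 of 8 were also called lower in HFD, with summed levels of 6.25 to 12.0 CPM in chow and 2.70 to 6.87 CPM in HFD. Also called lower were 2 of 7 liver endothelial markers (Clec4g and Fcgr2b, with the summed list at 268 to 302 CPM in chow and 212 to 301 CPM in HFD), 2 of 8 pericentral (Axin2 and Cyp1a2, 6492 to 10120 and 8237 to 13910 CPM), 1 of 8 periportal (Cdh1, 4231 to 4717 and 3077 to 5907 CPM), 1 of 8 cholangiocyte (Sox9, 65.9 to 102.5 and 54.4 to 123.5 CPM) and 1 of 7 stellate cell markers (Hhip, 319 to 383 and 269 to 441.5 CPM). Called higher was 1 of 5 red blood cell markers (Alas2, 73.6 to 212 and 84.5 to 482 CPM). So was 1 of 6 exocrine pancreas markers (Cela1, list at 8.51 to 10.9 and 10.8 to 26.1 CPM). The other pancreas markers had at most 0.0527 CPM in any library and were not tested, so the list's level was almost that of Cela1 alone. None of the 8 hepatocyte markers and none of the 6 Kupffer cell markers tested was called. Over all protein coding genes tested, 5.59% were called lower and 4.74% higher in HFD. Not all markers of a list moved together. The 8 pericentral markers had a median log2 fold change of 0.08. Cyp2e1 made up most of the pericentral sum, at 3723 to 6748 CPM in chow and 5355 to 10340 CPM with HFD. The part of these cell types in the fall of Abcc4 was not tested.

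The uptake carrier Slc10a1 (chr12:80953183-80968705, minus strand) was at 590.4, 486, 589, 582 and 542 CPM in chow. With HFD its lowest, median and highest levels were 469, 531 and 633 CPM. The groups overlapped, and the log2 fold change of -0.07 ± 0.07 (SE) had the narrowest 95% interval of the 10 genes, from -0.22 to 0.09, with an adjusted p of 0.623.

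**Figure D3:**
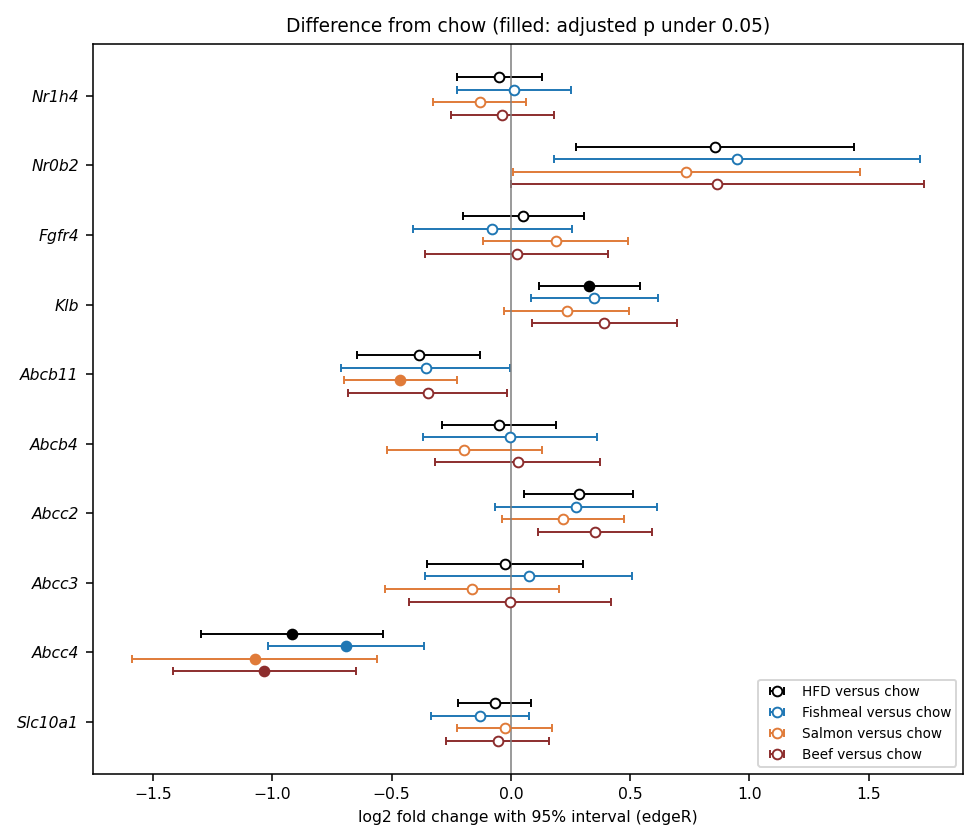
Log2 fold change against chow with its 95% interval from edgeR for the 10 genes, for all HFD-fed mice (black) and for fishmeal (blue), salmon filet (orange) and beef (red) separately, filled where the adjusted p is under 0.05. Abcc4 is filled and left of 0 in all 4 comparisons, at -0.92, -0.69, -1.07 and -1.03.

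Each HFD group was next compared with chow by itself. The 3 comparisons share the 5 chow libraries and are given side by side. Abcc4 was lower in each, by a log2 fold change of -0.69 ± 0.15 (SE) for fishmeal, -1.07 ± 0.24 for salmon filet and -1.03 ± 0.18 for beef, at adjusted p-values of 0.0274, 0.0317 and 0.0111. With mouse 31 as labelled, Abcc4 was also called with salmon filet and with beef (adjusted p = 0.0178 and 0.0208). Abcc4 was the 1 gene of the 10 called with fishmeal, where 3.5% of all protein coding genes were called, and with beef, where 2.97% were called. With salmon filet Abcb11 was called too, at a log2 fold change of -0.46 ± 0.11 (SE) and an adjusted p of 0.0366, so that 2 of 10 were called against 4.57% of all protein coding genes.

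These calls were close to the threshold. The Abcb11 call with salmon filet was lost with mouse 31 as labelled (log2 fold change -0.36, adjusted p = 0.126), with all 4 groups in the fit (0.102), in limma on log2(TPM + 1) (0.0506), without any 1 of the salmon mice 22, 23, 25, 26 and 27 (0.0660, 0.0590, 0.0957, 0.0646 and 0.0671) and without chow mouse 1, 2 or 7 (0.0502, 0.0631 and 0.0815). The Abcc4 call with fishmeal was lost with all 4 groups in the fit (adjusted p = 0.0926), with the clock score as a covariate (0.509), and without fishmeal mouse 13 or 14 (0.0720 and 0.0558) or chow mouse 2, 5, 7 or 10 (0.0763, 0.0574, 0.0737 and 0.0543). With salmon filet it was lost without mouse 26, 2 or 7 (0.0586, 0.0604 and 0.0705), and with beef it was kept when any 1 mouse was left out. The clock score was not run as a covariate for salmon filet or beef against chow, so its bearing on those calls was not tested.

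Among the genes not called, Nr0b2 had log2 fold changes of 0.95 ± 0.35 (SE) for fishmeal, 0.74 ± 0.33 for salmon filet and 0.87 ± 0.40 for beef, at adjusted p-values of 0.183, 0.206 and 0.272. Those of Klb were 0.35 ± 0.12, 0.23 ± 0.12 and 0.39 ± 0.14 (adjusted p = 0.155, 0.256 and 0.157). Those of Abcc2 were 0.28 ± 0.16, 0.22 ± 0.12 and 0.35 ± 0.11 (adjusted p = 0.417, 0.279 and 0.108), and Abcc2 with beef passed in DESeq2 (adjusted p = 0.0333). Abcb11 was at -0.36 ± 0.16 with fishmeal and -0.35 ± 0.15 with beef (adjusted p = 0.292 and 0.252). With mouse 31 as labelled, Abcb11 with beef was at -0.47 (adjusted p = 0.115). For salmon filet and beef as labelled, Nr0b2 was then at 0.83 and 0.77 (adjusted p = 0.154 and 0.382), Klb at 0.24 and 0.42 (adjusted p = 0.234 and 0.179), and Abcc2 at 0.25 and 0.35 (adjusted p = 0.222 and 0.170). The other 5 genes, Nr1h4, Fgfr4, Abcb4, Abcc3 and Slc10a1, lay between -0.20 (Abcb4, salmon filet) and 0.19 (Fgfr4, salmon filet), and none had an unadjusted p under 0.05. As labelled, their values with salmon filet and beef lay between -0.15 (Abcc3, salmon filet) and 0.16 (Fgfr4, salmon filet).

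The protein sources were then compared with each other on the HFD background. None of the 10 genes was called by edgeR or by DESeq2 in fishmeal against the other HFD groups, where 0.162% of all protein coding genes were called, in fishmeal against salmon filet (0.178%), in fishmeal against beef (0.03%) or in salmon filet against beef (0%). At an unadjusted p under 0.05 there was no gene in the first and the third of these and 1 gene each in the other comparisons. These were Fgfr4, at a log2 fold change of -0.26 ± 0.10 (SE) in fishmeal against salmon filet (adjusted p = 0.897), and Abcb4, at -0.23 ± 0.09 in salmon filet against beef (adjusted p = 0.922). Fgfr4 was at 25.2 to 35.0 CPM with fishmeal and 31.9 to 39.3 CPM with salmon filet, which overlap. Abcb4 was at 203 to 233 CPM in the 5 salmon libraries, below the beef libraries except mouse 35 at 230.1 CPM, and mouse 31, whose group is in doubt, had 301 CPM. With mouse 31 as labelled the log2 fold change of Abcb4 was -0.09, and that of Fgfr4 was -0.22.

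The largest difference of fishmeal from the other HFD groups was that of Abcc4, 0.37 ± 0.21 (SE), with a 95% interval of -0.07 to 0.82 and an adjusted p of 0.997. The intervals of the 10 genes in this comparison had half-widths from 0.17 (Slc10a1) to 0.48 (Nr0b2) on the log2 scale. Between pairs of protein sources the widest were 0.56 for fishmeal against salmon filet (Abcc4), 0.63 for fishmeal against beef (Nr0b2) and 0.60 for salmon filet against beef (Abcc4).

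Other genes of the pathway were read from 6 lists with 88 genes in all, of which 82 were tested. With HFD 11 of them rose and 6 fell, compared with 4.74% of all protein coding genes called higher and 5.59% called lower, 10.3% in all. The lists were chosen with earlier results of these data known, so these counts cannot show an excess over that share. The median log2 fold change of the 82 genes was -0.03. Of 16 bile acid synthesis genes tested 2 rose and 3 fell, of 17 other transport genes 5 rose and 2 fell, of 18 partners and regulators of FXR 2 rose and 1 fell, of 10 other FXR targets 1 rose, of 12 genes of FGF receptor signalling 1 rose, and of 10 genes of canalicular trafficking none was called by edgeR, with 1 at an unadjusted p under 0.05.

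The called pathway genes with the largest differences include transporters, an enzyme and a feedback inhibitor. Slco1a1, an organic anion uptake carrier of the sinusoidal membrane, fell by 3.78 on the log2 scale (SE 0.75, adjusted p = 0.00219). Its level was 14.9 to 109 CPM in chow and 0.190 to 30.3 CPM with HFD, where the highest value was that of beef mouse 35. Cyp7a1, the rate-limiting enzyme of classic bile acid synthesis and a gene that SHP represses, fell by 1.98 (SE 0.28, adjusted p = 8.11e-05), from 189.6 to 574 CPM in chow to 38.9 to 165 CPM with HFD, with no overlap. Spry4, an inhibitor of receptor tyrosine kinase signalling that is itself induced by FGF signals, rose by 1.59 (SE 0.21, adjusted p = 3.85e-05), from 7.54 to 10.6 CPM in chow to 17.5 to 41.5 CPM with HFD. No other tested gene of FGF receptor signalling was called, among them Spry1 (-0.03), Spry2 (0.10), Dusp6 (-0.27) and Egr1 (-1.305). Abcg8 and Abcg5, which together form the canalicular sterol exporter, rose by 1.02 and 0.85 (SE 0.20 and 0.16, adjusted p = 0.00187 and 0.00149). With the clock score described below as a covariate both calls were lost, at log2 fold changes of 0.62 and 0.54 (adjusted p = 0.142 and 0.124). In Slco1a1, Cyp7a1, Spry4, Abcg8 and Abcg5 every HFD-fed mouse lay on one side of the chow mean.

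**Figure D4:**
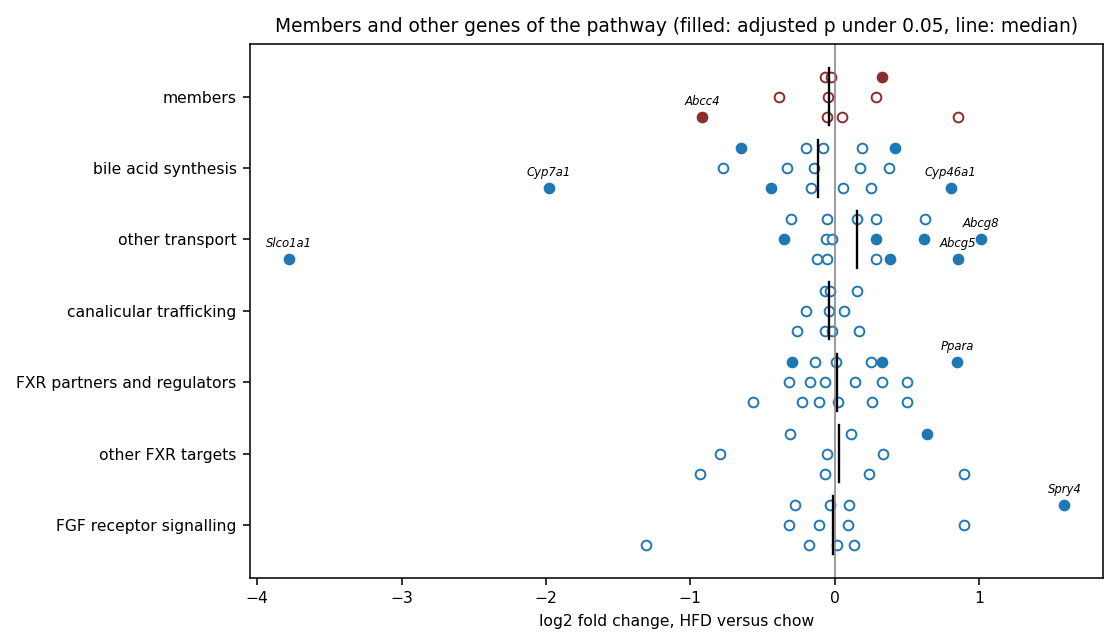
Log2 fold change of HFD against chow for the 10 genes (red) and for the 82 tested genes of the 6 pathway lists (blue), 1 point per gene, filled where the adjusted p is under 0.05 and with a black line at each list's median. Filled genes with a change over 0.8 are named, from Slco1a1 at -3.78 to Spry4 at 1.59, and Fgf21 is drawn in the lists of FXR targets and of FGF signalling.

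Within single HFD groups the named pathway genes were called as follows. Cyp7a1, with log2 fold changes of -2.04, -2.20 and -1.74 (fishmeal, salmon filet, beef), Spry4, with 1.83, 1.21 and 1.66, Abcg5, with 1.06, 0.63 and 0.82, and Abcg8, with 1.19, 0.79 and 1.03, passed in all 3 comparisons with chow. Slco1a1 passed with fishmeal and salmon filet, at -4.55 and -4.24. In the comparisons among HFD groups no gene of the 6 lists was called.

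How the 10 genes varied from mouse to mouse was described by the correlation of log2 CPM, after subtraction of each group's mean, over the 20 libraries, which share their library depth and RNA quality with every gene compared. The mean subtracted for mouse 31 was that of beef, and these correlations were not run with it as labelled. Among pairs of the 10 genes the highest Pearson correlations were those of Klb with Abcc3 (0.722), Nr0b2 with Fgfr4 (0.623) and Nr0b2 with Abcc3 (0.583). The lowest were those of Nr1h4 with Abcb11 (-0.661) and Abcb11 with Abcc3 (-0.524), so mice with more of the export pump transcript had less of these.

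Of 11507 protein coding genes with a mean of at least 1 CPM, those most like each gene are given with their correlation. Nr1h4 was most like Csrp2bp (0.815), Anxa7 (0.747) and Ttc7b (0.731), and Nr0b2 most like 3010026O09Rik (0.817), Tnfaip8l1 (0.810) and Gpatch3 (0.808). Fgfr4 was most like Cpsf1 (0.928), Sppl2b (0.919) and Srebf2 (0.906), and Klb most like Igf2r (0.879), Lman2l (0.841) and Snx29 (0.821). For the canalicular genes these were Stra6l (0.903), Elp4 (0.890) and Net1 (0.887) for Abcb11, Acad11 (0.914), Hsdl2 (0.894) and Gm4952 (0.883) for Abcb4, and Ganc (0.896), Txlng (0.870) and Cdc42bpa (0.854) for Abcc2. For the sinusoidal carriers they were Acad10 (0.888), Atp7b (0.873) and Pla2g6 (0.873) for Abcc3, Sult2a5 (0.862), Sult2a2 (0.838) and Hao2 (0.820) for Abcc4, and Pcbp2 (0.841), Dars (0.777) and Ube2r2 (0.749) for Slc10a1. Sult2a5 and Sult2a2 belong to 1 family of closely related sulfotransferases.

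Livers also differed in the levels of circadian clock genes. A clock score was taken for each library as the mean log2 CPM of 8 genes that peak towards evening, such as Dbp and Per2, minus that of 5 genes that peak towards morning, such as Arntl. It ranged from -3.85 to -1.73 in chow and from -2.84 to 3.0 with HFD, so score and diet overlapped only in part. In HFD against chow 7 of the 8 evening genes were called higher and 2 of the 5 morning genes lower. In the fits with the score as a covariate, score and diet therefore cannot be fully told apart. After the values had been seen, the level of each of the 10 genes was set against the score over the 15 HFD libraries. Abcb11 had a Pearson r of -0.77 (permutation p = 0.00038, adjusted over 10 genes 0.0038) and a Spearman rho of -0.857 (permutation p = 0.00012, adjusted 0.0012). Without the libraries farthest from the median score, mice 20 and 40, r was -0.647. Within the 3 groups, with mouse 31 counted with beef, r was -0.819. Without mouse 31 or mouse 35 r was -0.709 and -0.788. The HFD-fed mouse with the lowest score, mouse 31, had 1237 CPM of Abcb11, and the one with the highest, mouse 40, had 678 CPM. None of the other 9 genes had an adjusted p under 0.05 in this family, and r for Abcc4 was -0.176 (permutation p = 0.528) and for Nr1h4 0.44 (permutation p = 0.101).

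**Figure D5:**
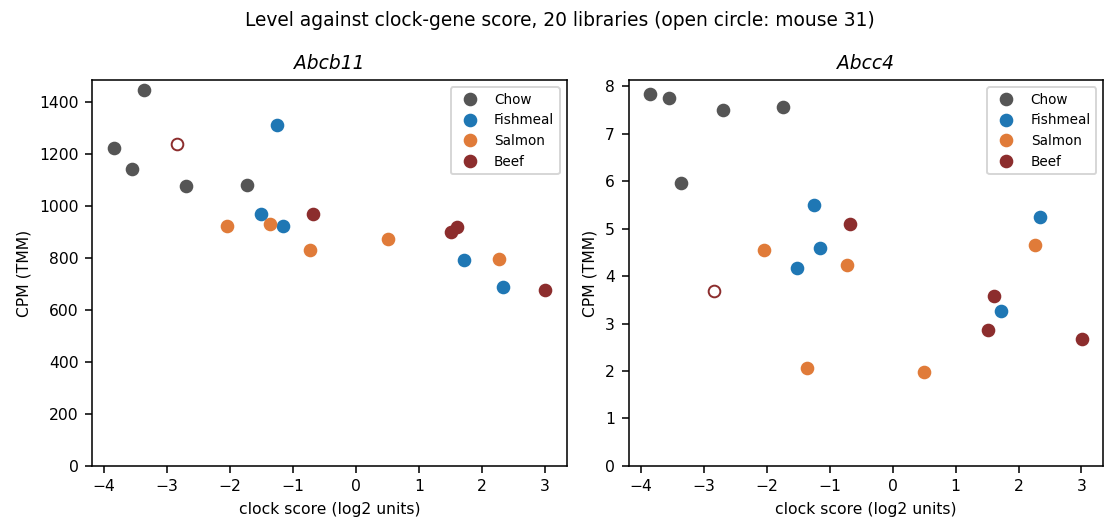
CPM of Abcb11 (left) and Abcc4 (right) against the clock score of the same library, in log2 units, with 1 point per mouse coloured by diet group and mouse 31 open. Over the 15 HFD-fed mice Abcb11 declines with the score (Pearson r -0.77), and Abcc4 of all 15 lies below the chow-fed mice (r -0.176).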

How the data were processed

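Liver RNA was sequenced as 1 strand-specific mRNA library per mouse. The authors mapped the reads with HISAT2 and deposited raw counts per gene from featureCounts, and separately TPM values, which are scaled to gene length and library size. Versions printed in the submitters' processing notes are 1.2.1 and 1.4.6-p1. The notes name GRCh38 for these mouse reads. The identifiers are Ensembl mouse genes, of which 55141 were found in GENCODE M21 on GRCm38, the source of all positions. Settings for strand, read pairs and reads that match several genes are not given in the sources used here.

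Counts were tested with edgeR 4.0 in R 4.3 (TMM, filterByExpr at a minimum count of 10, two-sided quasi-likelihood tests) over all genes, with Benjamini-Hochberg adjustment over 16212 to 17120 genes per comparison and a call at an adjusted p under 0.05. Shares of genes called are of protein coding genes. Only the groups compared entered a fit. DESeq2 1.42, limma 3.58 on log2 TPM after adding 1 or 0.5 (genes averaging 0.5 TPM or more), other size factors and filters, a fit on all 4 groups, the clock score as a covariate, mouse 31 as labelled and each library left out were the alternatives. The clock score entered only HFD against chow, fishmeal against chow and fishmeal against the other HFD groups. Log2 CPM used a prior count of 2. Tests were tried on simulated data. The members and lists were chosen with earlier results of these data known. Every member was named, with the 5 called pathway genes of largest log2 fold change in HFD against chow, and every pathway gene called among HFD groups. Transcripts were searched with blastn at 90% identity over 100 bases, and correlations used 100000 permutations. Promoter windows are from RefSeq.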

Additional observations from a re-analysis of the deposited data

Results flagged for a closer look

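A mouse that stands apart from its group was looked for in 60 gene and group combinations. Of these, 40 were by column name and 20 with salmon filet and beef as labelled. In all 6 were marked, 2 of them among the 40 by column name, and chance marks about 1 in 20. The checks as labelled use the same libraries again, so the 60 are not independent. By column name, Klb in beef mouse 35 was 68.6 CPM against 47.6 to 51.0 CPM in the other beef libraries, also with 4 beef libraries as labelled, and Abcc4 in chow mouse 1 was 5.97 CPM against 7.51 to 7.84 CPM. Mouse 35 is also the library with the lowest share of counts on protein coding genes, 84.3%. With mouse 31 as labelled, that mouse was the highest of the salmon filet group for Abcb11, at 1237 CPM against 793 to 928 CPM, and for Abcb4, at 301 CPM against 203 to 233 CPM. Without it in the beef group, Abcb4 in mouse 35 was the lowest, at 230.1 CPM against 255 to 257 CPM.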

How the results depend on the processing

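No paired analysis was possible because the mice of the groups share no numbers. In HFD against chow the number of the 10 genes called was 2, against 4 in DESeq2, 1 without a filter on low counts and 0 with the clock score as a covariate, and it lay between 1 and 4 when single libraries were left out. With fishmeal against chow it was 1, against 0 with all 4 groups in the fit or with the clock score, and 0 to 1 without single libraries. With salmon filet against chow it was 2, against 1 with all 4 groups in the fit, in limma on log2(TPM + 1) and with mouse 31 as labelled, and 0 to 2 without single libraries. With beef against chow it was 1, against 2 in DESeq2. Neither salmon filet nor beef against chow was fitted with the clock score. Among HFD groups the number called was 0 in every setting run. With the clock score as a covariate, 5 genes changed sign in fishmeal against chow, on the log2 scale Abcb11 to 0.0839, Abcc2 to -0.14, Abcc3 from 0.07 to -0.46, Nr1h4 from 0.01 to -0.25 and Fgfr4 from -0.08 to 0.03. Without single libraries, the HFD against chow difference of Fgfr4 lay between -0.0669 and 0.14, that of Abcb4 between -0.12 and 0.0876 and that of Abcc3 between -0.11 and 0.0935, each across 0. The causes of these shifts were not tested. Cyp7a1, Slco1a1 and Spry4 were called in HFD against chow under all 29 alternatives, and Abcg5 and Abcg8 under 28, lost with the clock score (0.54 and 0.62). Over all protein coding genes, calls in HFD against chow numbered 1415, 816 to 1619 without single libraries and 250 with the clock score, and those with fishmeal 471, against 988 in DESeq2, 293 in limma, 36 with the clock score, 726 with all 4 groups in the fit and 239 to 569 without single libraries. With salmon filet they numbered 615, against 1453, 293 in limma and 167 to 533, and with beef 397, against 936, 237, 676 with all 4 groups and 159 to 363. Fishmeal against the other HFD groups gave 22 (49 in DESeq2, 12 to 26 without single libraries), against salmon filet 24 (78, 12 to 34) and against beef 4 (27, 1 to 4, with 12 without a filter, 2 in limma and 1 with mouse 31 as labelled). Salmon filet against beef gave 0 in edgeR (4 in DESeq2, 1 without a filter, 0 to 2 without single libraries). Depth limits most the values of Abcc4, at 112 to 477 counts per library, and of Nr0b2, at 173 to 1480.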
